A study of Mus musculus with 4 samples.

Results

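The cytosolic sulfotransferases examined here were Sult1a1, Sult1b1, Sult1c2, Sult1d1, Sult1e1, Sult2a8, Sult3a1 and Sult5a1. They were taken by gene symbol from the deposited table of mouse liver read counts and made up 8 of its 25655 genes and 8 of the 21 genes in it whose symbol begins with Sult. Liver RNA was compared between male wild type mice (HFD-WT) and male ADAR2 KO mice (HFD-KO), with 2 libraries per group. ADAR2, encoded by Adarb1, deaminates adenosine to inosine in double-stranded RNA. All mice were homozygous for the GluR-B R/R allele, which encodes the edited form of a glutamate receptor subunit and which mice without ADAR2 need to survive after birth. The HFD-WT mice were ADAR2+/+ and the HFD-KO mice were ADAR2-/- animals, both from heterozygous intercrosses on a B6129S background. At the age of 5 weeks both groups were placed on the high-fat diet (HFD), which lasted 12 weeks. The knockout is not limited to the liver, and a legend of the study gives more mice per group than there are libraries. Whether a library pools several mice was not given in the sources used here.

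Sulfotransferases of the cytosol transfer a sulfonate group from the donor PAPS to hydroxyl or amine groups of small molecules. Sulfonation makes steroids, thyroid hormones, catecholamines, bile acids and many drugs more soluble in water and usually ends their action at receptors. The liver is a main site of this conjugation, and in mice several of the genes are expressed at different levels in males and females. The enzymes are named by sequence: family 1 acts mainly on phenols and estrogens, and family 2 on hydroxysteroids and bile acids.

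The 8 members were similar in gene structure. In the GENCODE M21 transcripts their coding sequences ran from 849 bases in Sult2a8 to 900 bases in Sult1b1, on 7 or 8 exons. Identity of the coding sequences over the 28 pairs of members ranged from 53.7% to 65.8%, with a median of 60.4%. Of the stretches of 100 bases in the transcripts of a member, 1.75% were shared with another gene for Sult1a1 and 0% for each of the other 7. At 50 bases the shared part was 7.36% for Sult1a1, mostly with the gene model Gm6939, 6.15% for Sult3a1, shared with Sult3a2, and 1.96% or less for the other 6. How the authors treated reads that align to several places was not given in the sources used here. How far this affects the Sult1a1 and Sult3a1 counts is therefore not known. The shares describe exact matches between transcripts and are not the size of a counting error.

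The promoters of Sult2a8, Sult1d1 and Sult1a1 are shown because these genes held most of the sulfotransferase mRNA in the liver, with Sult2a8 higher and Sult1d1 lower in the HFD-KO libraries. Each is the 250 bases before a RefSeq transcription start on GRCm38.p6, read 5′ to 3′ on the minus strand, on which these genes lie. Sult2a8 has 2 RefSeq starts, at chr7:14446588-14446837 and chr7:14438552-14438801. Sult1d1 lies at chr5:87569007-87569256 and Sult1a1 at chr7:126676419-126676668. Capitals mark matches to the motifs listed after the sequences, on either strand.
Sult2a8 start 1: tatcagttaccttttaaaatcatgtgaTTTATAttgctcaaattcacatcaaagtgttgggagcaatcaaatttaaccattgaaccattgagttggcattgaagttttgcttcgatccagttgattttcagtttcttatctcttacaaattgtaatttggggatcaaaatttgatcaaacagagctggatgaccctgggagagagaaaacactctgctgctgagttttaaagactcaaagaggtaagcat
Sult2a8 start 2: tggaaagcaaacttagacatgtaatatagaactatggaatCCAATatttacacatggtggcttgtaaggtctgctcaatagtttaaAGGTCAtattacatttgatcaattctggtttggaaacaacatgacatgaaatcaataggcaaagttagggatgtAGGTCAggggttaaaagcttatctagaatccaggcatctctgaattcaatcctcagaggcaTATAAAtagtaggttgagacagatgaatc
Sult1d1: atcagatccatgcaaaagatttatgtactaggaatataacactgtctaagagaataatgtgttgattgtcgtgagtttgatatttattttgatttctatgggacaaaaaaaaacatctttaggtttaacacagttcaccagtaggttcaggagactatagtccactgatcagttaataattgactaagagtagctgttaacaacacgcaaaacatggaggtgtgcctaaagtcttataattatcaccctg
Sult1a1: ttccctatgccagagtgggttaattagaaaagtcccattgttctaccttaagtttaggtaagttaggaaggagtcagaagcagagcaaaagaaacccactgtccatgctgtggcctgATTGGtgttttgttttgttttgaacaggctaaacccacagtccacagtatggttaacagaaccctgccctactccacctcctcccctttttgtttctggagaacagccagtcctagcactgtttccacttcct

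All 8 members were matched by symbol to 10 promoter windows, with 2 starts each for Sult1b1 and Sult2a8. The searched letters were TATAAA (the core promoter element bound by TBP), AGGTCA (a hexamer bound by nuclear receptors), TTCNNNGAA (STAT5 core), TGACNNNGC (antioxidant response element core), CCAAT (bound by NF-Y) and CACGTG (E-box). Among all 32851 promoter windows of this length, TATAAA was found in 12.4%, AGGTCA in 14.02%, TTCNNNGAA in 7.02% and CCAAT in 33.8%. The window at Sult2a8 start 2 held TATAAA at 29 to 24 bases upstream and AGGTCA at 164 to 159 and at 90 to 85 bases upstream, with CCAAT at 210 to 206. Start 1 held only TATAAA on the opposite strand, at 223 to 218 bases upstream. AGGTCA was also present on the opposite strand in the Sult1b1 and Sult1e1 windows, at 123 to 118 and 113 to 108 bases upstream. Neither Sult1d1 nor Sult5a1 held a match to any of these motifs, and Sult1a1 and Sult1c2 held only CCAAT on the opposite strand. The single STAT5 core match was in Sult3a1, at 109 to 101 bases upstream. TGACNNNGC (10.2% of all windows) and CACGTG (6.02%) were in none of the 10 windows. These matches describe letters in the reference and are not binding sites shown by these data.

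The libraries held between 24480798 and 28691330 counted reads, so that 3 counts, taken as the limit of detection, corresponded to 0.104 to 0.126 CPM. CPM is the count of a gene scaled to a common library size, here the library total after TMM scaling, and the limit from 3 counts covers counting error only. Adarb1 (chromosome 10, 77126560 to 77254104 on GRCm39) was measured at 15.7 and 19.8 CPM in HFD-WT, against 6.23 and 9.55 CPM in HFD-KO, with a log2 fold change of -1.17 (SE 0.20) and an adjusted p of 0.159 by edgeR's quasi-likelihood test. Its adjusted p was 0.00023 without HFD-KO replicate 1, 3.1e-07 without HFD-KO replicate 2, 0.04 with the replicate number as a block, 0.0025 without the filter on low counts and 0.00069 by the DESeq2 Wald test. It stayed above 0.05 with DESeq2 size factors (0.165), library size alone (0.139), without HFD-WT replicate 1 (0.188) and without HFD-WT replicate 2 (0.971). The log2 fold change was below 0 under each of these settings, from -1.51 to -0.89. Gene counts do not show which exons the remaining Adarb1 reads came from. The Y-linked gene Ddx3y was measured at 34.0 to 38.6 CPM over the 4 libraries. Hepatocyte markers were abundant in every library, with a summed level of at least 89987 CPM. Over the 12967 genes tested, 10 genes (0.0771%) had an adjusted p under 0.05, with 7 higher (0.054%) and 3 lower (0.0231%) in HFD-KO. At an unadjusted p under 0.05 there were 1164 genes (8.98%), with 551 higher (4.25%) and 613 lower (4.73%). The p-values measure the spread between these libraries, which may be technical.

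In the livers of HFD-KO mice, Sult2a8, a bile acid sulfotransferase, was measured at 1.84 times the HFD-WT level, and Sult1d1, which sulfonates dopamine and other catecholamines, at 0.774 times. Sult1a1 and Sult1b1, the phenol and thyroid hormone sulfotransferases, were measured at nearly equal levels in both groups. Of the 8 members, 7 had enough reads to be tested and 0 had an adjusted p under 0.05, by edgeR, against 0.0771% of all genes, by the DESeq2 Wald test, against 0.676%, and with the replicate block, against 0.154%. At an unadjusted p under 0.05, 1 member was higher (Sult2a8) and 1 was lower (Sult1d1), against 4.25% and 4.73% of all genes. Both HFD-KO libraries were above both HFD-WT libraries for 1 member (Sult2a8) and below both for 3 members (Sult1c2, Sult1d1 and Sult1e1), while 20.5% and 20.3% of all genes tested, 40.8% in all, were separated in these directions. The median log2 fold change of the 7 members was -0.04, compared with 0.01 over all genes tested, with 3 values above 0 and 4 below.

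**Figure D1:**
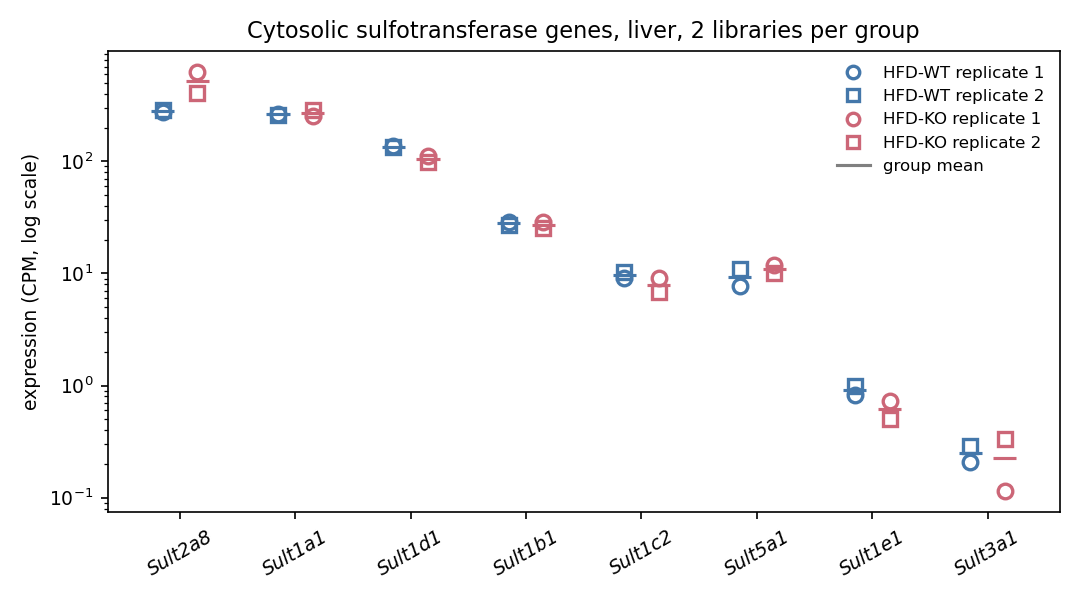
Expression of the 8 sulfotransferase genes in CPM on a log scale, with 1 point per library (circles replicate 1, squares replicate 2), blue for HFD-WT and red for HFD-KO, and a short line at each group mean. Sult2a8 lay at 277 and 285 CPM in HFD-WT and at 629 and 404 in HFD-KO, and Sult1d1 at 137 and 134 against 111 and 99.0. CPM is not corrected for gene length, so heights compare libraries within a gene.

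Sult2a8 (ENSMUSG00000030378) lies on chromosome 7 at 14144611 to 14180694 on GRCm39, on the minus strand. It was counted 8027 and 7831 times in the HFD-WT libraries and 16562 and 9638 times in the HFD-KO libraries, which is 277 and 285 CPM against 629 and 404 CPM. Both HFD-KO libraries were above both HFD-WT libraries, and HFD-KO replicate 1 stood well above replicate 2. The group means were 281 ± 5.32 CPM in HFD-WT, against 516 ± 160 CPM in HFD-KO (SD, 2 libraries each). The log2 fold change was 0.88 (SE 0.19, 95% interval 0.44 to 1.32), with an unadjusted p of 0.002 and an adjusted p of 0.233 by edgeR. In all, 157 genes tested (1.21%) had a log2 fold change as large or larger.

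The spread of Sult2a8 was unequal in the 2 groups. Between replicates the CPM differed 1.03-fold in HFD-WT and 1.56-fold in HFD-KO, and the coefficient of variation was 1.89% and 30.9%. The size for Sult2a8 depended on which HFD-KO library was used. With both HFD-KO libraries and the filter on low counts, its adjusted p was 0.233 by edgeR. Without HFD-KO replicate 1 the log2 fold change was 0.52 with an adjusted p of 0.00025 by edgeR, and without HFD-KO replicate 2 it was 1.16 with an adjusted p of 2.9e-10. These fits called 5.31% and 3.08% of all genes. In both the spread came from the 2 HFD-WT libraries, and the lone HFD-KO library was assumed to vary as they did. With all libraries and no filter on low counts, which called 0.936% of all genes, the adjusted p of Sult2a8 was 0.0097.

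Sult2a8 sits in a cluster of 8 Sult2a genes on chromosome 7, between 13357892 and 14228155 on GRCm39, a span of 870 kb with 1 other gene of the table inside, Obox8. Its neighbours were almost silent. Sult2a7, at 14198976 to 14228155, was counted 62 and 74 times in HFD-WT and 53 and 56 times in HFD-KO, with overlapping CPM, a log2 fold change of -0.15 (SE 0.25) and an adjusted p of 0.894 by edgeR. Its coding sequence was 71.0% identical to that of Sult2a8, and 0% of its stretches of 50 bases were shared with any other gene. The other 6 Sult2a genes (Sult2a1 to Sult2a6) were each counted at most 3 times over the 4 libraries together. At these counts a difference between the groups was not detectable.

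The second member with an unadjusted p under 0.05 was Sult1d1 (ENSMUSG00000029273), on chromosome 5 at 87702504 to 87716886 on GRCm39, on the minus strand. Its counts were 3955 and 3695 in HFD-WT and 2911 and 2364 in HFD-KO, or 137 and 134 CPM against 111 and 99.0 CPM. Both HFD-KO libraries were below both HFD-WT libraries, and replicates lay within 1.12-fold of each other in either group. Means were 135 ± 1.58 and 105 ± 8.20 CPM (SD). The log2 fold change of Sult1d1 was -0.37 (SE 0.086, 95% interval -0.57 to -0.17), with an unadjusted p of 0.0033 and an adjusted p of 0.268 by edgeR. A log2 fold change as low or lower was found for 993 of all genes tested (7.66%). Without HFD-KO replicate 1 it was -0.45 with an adjusted p of 0.0028, whereas without HFD-KO replicate 2 it was -0.29 with an adjusted p of 0.112.

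Sult1d1 is the middle gene of 3 members that lie side by side on chromosome 5, from 87661198 to 87739453 on GRCm39. The cluster spans 78.3 kb, all 3 genes are on the minus strand and 0 other genes of the table lie inside. Sult1b1 (ENSMUSG00000029269, 87661198 to 87686054), which sulfonates thyroid hormones, was measured at 28.8 and 27.0 CPM in HFD-WT, against 28.9 and 25.2 CPM in HFD-KO. The groups overlapped, with a log2 fold change of -0.04 (SE 0.097, 95% interval -0.27 to 0.18) and an adjusted p of 0.926. Sult1e1 (ENSMUSG00000029272, 87723828 to 87739453), the estrogen sulfotransferase, was counted only 24 and 27 times in HFD-WT and 19 and 12 times in HFD-KO. This was 0.829 and 0.982 CPM against 0.722 and 0.502 CPM, and the groups did not overlap. Its log2 fold change of -0.55 (SE 0.40) had an adjusted p of 0.723, and the 95% interval from -1.48 to 0.38 crossed 0. All 3 genes had a log2 fold change below 0. The count ratio of Sult1d1 to Sult1b1 was 4.74 and 4.98 in HFD-WT and 3.82 and 3.93 in HFD-KO. These ratios did not overlap, but they hold the same Sult1d1 counts and are not separate evidence. Without HFD-KO replicate 2, the log2 fold change of Sult1b1 was 0.052.

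Sult1a1 (ENSMUSG00000030711), the main phenol sulfotransferase, lies on chromosome 7 at 126272037 to 126275604 on GRCm39, on the minus strand. Its counts were 7716 and 7117 in HFD-WT and 6645 and 6809 in HFD-KO, or 266 and 259 CPM against 252 and 285 CPM. The HFD-KO libraries lay on either side of the HFD-WT libraries. With a log2 fold change of 0.03 (SE 0.092) and an adjusted p of 0.941 by edgeR, no difference was detected, and the 95% interval ran from -0.18 to 0.25. The sign was not stable, at -0.013 when scaled by library size alone and -0.058 without HFD-KO replicate 2.

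Sult1c2 (ENSMUSG00000023122) is on chromosome 17 at 54136665 to 54153367 on GRCm39, on the minus strand. It was measured at 9.19 and 10.3 CPM in HFD-WT, against 9.04 and 6.78 CPM in HFD-KO. HFD-KO replicate 1 was only just below the lower HFD-WT library, and replicate 2 was clearly lower. The log2 fold change was -0.29 (SE 0.16, 95% interval -0.68 to 0.09), with an adjusted p of 0.660 by edgeR. It was -0.10 without HFD-KO replicate 2 and -0.52 without HFD-KO replicate 1, with adjusted p of 0.912 and 0.0955.

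Sult5a1 (ENSMUSG00000000739), on chromosome 8 at 123866931 to 123885054 on GRCm39 and on the minus strand, was measured at 7.73 and 10.9 CPM in HFD-WT, against 11.9 and 10.1 CPM in HFD-KO. The groups overlapped, since HFD-WT replicate 1 was low and HFD-WT replicate 2 lay between the HFD-KO libraries. The log2 fold change was 0.24 (SE 0.18, 95% interval -0.18 to 0.66), with an adjusted p of 0.734 by edgeR. It was 0.0039 without HFD-WT replicate 1 and 0.51 without HFD-WT replicate 2, with adjusted p of 0.998 and 0.9998. Sult3a1 (ENSMUSG00000069668), an amine sulfotransferase on the plus strand of chromosome 10 at 33733717 to 33755528, was counted 6 and 8 times in HFD-WT and 3 and 8 times in HFD-KO. It did not pass the filter on low counts and was not tested, and the libraries of the groups overlapped.

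**Figure D2:**
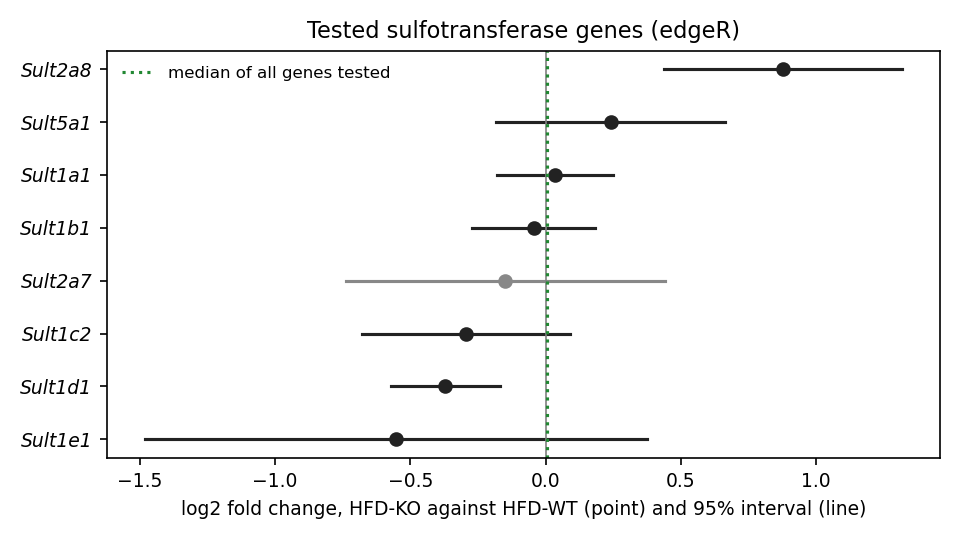
Log2 fold changes of HFD-KO against HFD-WT (points) with 95% intervals (lines) for the 7 members tested by edgeR and, in grey, for Sult2a7. The intervals of Sult2a8 (0.44 to 1.32) and Sult1d1 (-0.57 to -0.17) lie to one side of 0 and the other intervals cross it, and the dotted line marks the median of all genes tested, 0.01.

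Levels between genes were compared on the deposited TPM values, which take gene length into account. In HFD-WT, Sult1a1 had the highest level at 351 ± 1.20 TPM (SD, 2 libraries), followed by Sult2a8 at 211 ± 7.65 and Sult1d1 at 113 ± 0.638. Sult1b1 at 20.2 ± 0.602, Sult1c2 at 10.6 ± 1.01 and Sult5a1 at 4.79 ± 1.24 came next. Sult1e1 at 1.47 ± 0.201 and Sult3a1 at 0.435 ± 0.111 were the lowest members. No 2 neighbouring members in this order had overlapping libraries, although Sult5a1 overlapped with Sult2a7, which is not a member. In HFD-KO the order differed in 1 place. Sult2a8 at 370 ± 108 TPM came before Sult1a1 at 345 ± 36.1, and their libraries overlapped, so these 2 could not be ordered beyond their spread. Sult1d1 at 83.5 ± 4.96 TPM came next in both groups, and Sult1b1 (19.8 and 17.7 in the 2 libraries), Sult1c2 (8.26 ± 1.51), Sult5a1 (5.40 ± 0.507), Sult1e1 (0.949 ± 0.223) and Sult3a1 (0.377 ± 0.268) followed without overlap. The deposited RPKM values gave the same order in both groups.

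Most of the sulfotransferase mRNA came from 3 genes. Together Sult1a1, Sult2a8 and Sult1d1 made up 94.4% and 94.0% of the summed TPM of all Sult genes in HFD-WT and 95.6% and 95.5% in HFD-KO. The share of Sult2a8 was 29.0% and 29.9% in HFD-WT and 50.1% and 37.7% in HFD-KO, so both HFD-KO libraries were above. Sult1d1 took 15.8% and 15.7% in HFD-WT and 9.76% and 10.3% in HFD-KO. Shares of 1 total are not independent of each other, and a higher Sult2a8 lowers the share of every other gene. The summed level itself was 710 and 723 TPM in HFD-WT, compared with 892 and 779 TPM in HFD-KO, while without Sult2a8 it was 504 and 507 against 446 and 485 TPM. Per read, Sult2a8 was counted 1.04 and 1.10 times as often as Sult1a1 in HFD-WT and 2.49 and 1.42 times as often in HFD-KO. For Sult1d1 against Sult1a1 the count ratio was 0.513 and 0.519 in HFD-WT and 0.438 and 0.347 in HFD-KO. These ratios do not depend on the scaling between libraries, and neither set overlapped between the groups. They hold the same Sult2a8 and Sult1d1 counts as above and are not separate evidence.

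**Figure D3:**
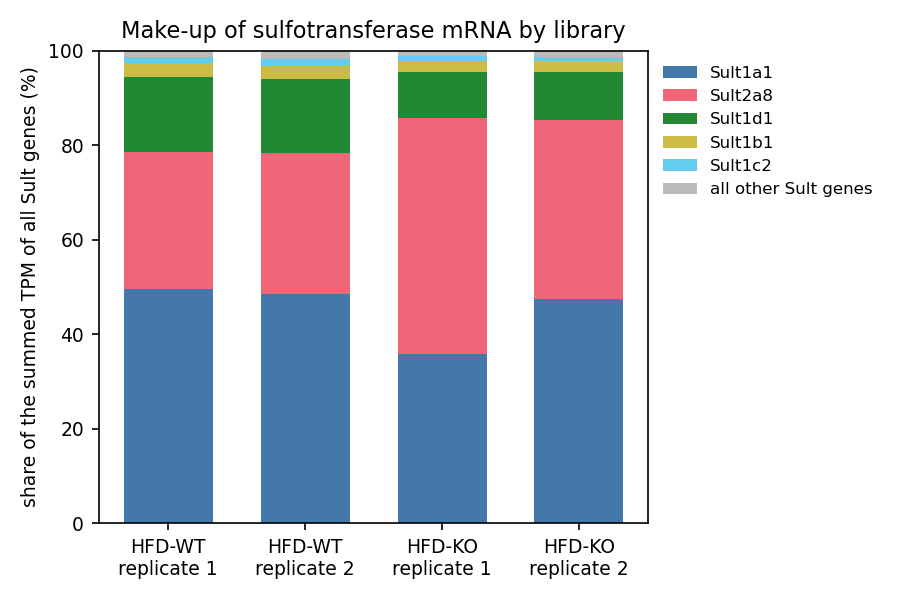
Share of each sulfotransferase gene in the summed TPM of all Sult genes (percent), with 1 bar per library. The Sult2a8 part is 29.0% and 29.9% in the HFD-WT bars and 50.1% and 37.7% in the HFD-KO bars, and the Sult1d1 part is smaller in both HFD-KO bars.

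The remaining 13 Sult genes of the table added 0.366% to 0.603% of the summed TPM. Of these, 6 were counted 0 times in all libraries (Sult1c1, Sult2a4, Sult2a6, Sult3a2, Sult6b1 and Sult6b2) and 6 were counted 1 to 3 times in total (Sult2a1, Sult2a2, Sult2a3, Sult2a5, Sult2b1 and Sult4a1). A count of 0 allows up to 0.104 to 0.126 CPM, depending on the library. Only Sult2a7 was tested. Some Sult2a genes share part of their sequence with another gene. Of the stretches of 100 bases, 34.6% were shared for Sult2a2, 16.6% for Sult2a5, 11.4% for Sult2a1 and 5.76% for Sult2a4. For Sult2a3 and Sult2a6 the shared part was 0% at 100 bases and 8.36% and 6.63% at 50 bases. Reads from shared stretches could have been divided or left out in counting.

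In bulk liver, a lower level can mean fewer cells of a type or less RNA per cell, and these cannot be told apart. Marker genes were counted at an unadjusted p under 0.05, against 4.25% higher and 4.73% lower among all genes tested. The hepatocyte list, with 11 of 11 markers in the table tested, had a summed level of 89987 to 91305 CPM in HFD-WT, against 93401 to 107061 CPM in HFD-KO, and 2 of its genes were higher. Kupffer cell and macrophage markers summed to 491 to 615 CPM in HFD-WT, against 381 to 401 CPM in HFD-KO, and 9 of 12 were lower. Stellate cell markers summed to 473 to 527 against 364 to 437 CPM, with 3 of 9 lower, and cholangiocyte markers to 85.3 to 105 against 65.3 to 76.5 CPM, with 1 of 6 tested lower. For endothelial markers the sums overlapped, at 353 to 400 and 349 to 358 CPM, with 1 of 10 lower. B cell and plasma cell markers reached 126 CPM in HFD-KO replicate 1, the library with the highest Sult2a8 and Sult5a1, against 24.7 CPM in HFD-KO replicate 2 and 16.98 to 19.7 CPM in HFD-WT, and 4 of 8 were higher. Most of the 126 CPM came from Ighm, at 73.9 CPM, and Igkc, at 32.7 CPM. Both overlapped HFD-WT, with Ighm at 7.45 CPM in HFD-KO replicate 2 against 7.77 and 7.85 CPM in HFD-WT. Derl3 was higher in HFD-KO replicate 2, at 7.33 CPM, than in HFD-KO replicate 1, at 2.39 CPM. T and NK cell markers summed to 2.72 to 8.43 CPM over the 4 libraries, with 0 of 8 higher or lower by edgeR, and red cell markers to 601 to 757 CPM in HFD-WT, against 811 to 1146 CPM in HFD-KO, with 3 of 5 tested higher. Pancreas markers summed to at most 11.7 CPM, kidney markers to at most 0.218 CPM with 3 of 6 at 0 in all libraries, and intestine markers summed to 146 to 151 CPM with 2 of 6 at 0. Nearly all of the intestine sum came from Fabp2, at 119 to 127 CPM, and Lgals4, at 22.8 to 27.1 CPM. The part of these cell types in the sulfotransferase values was not tested.

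None of the tested genes that supply the sulfonate donor passed the test. The pathway lists here, like the members, were chosen with earlier results of these data known, and their counts stand beside 4.25% higher and 4.73% lower among all genes tested. Of 12 tested genes for PAPS synthesis, sulfate transport and PAPS breakdown, 0 reached an unadjusted p under 0.05 with edgeR, higher or lower, and the median log2 fold change was -0.01. Papss2, the main PAPS synthase of liver, was measured at 132 and 112 CPM in HFD-WT, against 114 and 108 CPM in HFD-KO. Slc26a1, a sulfate transporter, was at 171 and 190 against 192 and 167 CPM. Both pairs overlapped. A wider list ran from the methionine cycle through cysteine to sulfate and taurine, with genes for the molybdenum cofactor. Among its 19 tested genes, 1 was higher and 0 lower, with a median of 0.08. The higher gene was Cbs, which commits homocysteine to cysteine synthesis, at 342 and 298 CPM in HFD-WT, against 355 and 449 CPM in HFD-KO (log2 fold change 0.33, SE 0.13, adjusted p 0.516). HFD-KO replicate 2 was the higher of the 2 HFD-KO libraries. Without it, Cbs had a log2 fold change of 0.15 and an adjusted p of 0.650, and without HFD-KO replicate 1 these were 0.49 and 0.0011.

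Sulfatases, which remove sulfate groups, had 1 gene higher and 2 lower of 12 tested, with a median log2 fold change of -0.06. Galns, a lysosomal sulfatase, was at 9.25 and 11.9 CPM in HFD-WT, against 8.09 and 7.202 CPM in HFD-KO. Sulf2, which removes sulfate from heparan sulfate outside the cell, was at 34.6 and 35.5 against 27.5 and 29.6 CPM, and Sumf2, a relative of the enzyme that activates sulfatases, was at 6.60 and 7.31 against 8.93 and 9.002 CPM. None of the 3 had an adjusted p under 0.369. Of the Golgi sulfotransferases, which modify sugar chains and proteins from the same donor, 19 of 35 were tested, with 0 higher, 2 lower (Chst14 with a log2 fold change of -0.62 and Hs6st1 with -0.21) and a median of 0.00.

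Nuclear receptors and other factors tied to the control of Sult genes gave 2 higher and 1 lower of 27 tested, with a median log2 fold change of 0.05. Nr1i2, the pregnane X receptor, was measured at 108 and 114 CPM in HFD-WT, against 81.0 and 90.1 CPM in HFD-KO. Its log2 fold change was -0.38 (SE 0.089) with an adjusted p of 0.271 by edgeR, and 0.0051 without HFD-KO replicate 2. Stat5a, a transcription factor of growth hormone signalling, was at 20.9 and 20.5 against 24.7 and 26.0 CPM, with a log2 fold change of 0.29 (SE 0.083) and an adjusted p of 0.370. The remaining higher gene was Cux2, a female-biased liver factor named here after its values were seen. It was at 0.483 and 0.327 CPM in HFD-WT, against 0.380 and 10.4 CPM in HFD-KO, so that 1 HFD-KO library alone was high. Genes that make, convert or carry estrogens, androgens and thyroid hormones gave 4 higher and 2 lower of 24 tested, with a median of 0.04. Only Slco1a1, an organic anion transporter of hepatocytes, had an adjusted p under 0.05 in this list. It rose from 18.5 and 17.9 CPM in HFD-WT to 59.3 and 58.0 CPM in HFD-KO (log2 fold change 1.69, SE 0.083, adjusted p 0.0013), although its adjusted p was 0.0736 without HFD-WT replicate 2. Hsd17b2, which oxidises estradiol, was at 71.1 and 60.6 against 85.8 and 82.3 CPM with an adjusted p of 0.369. Hsd17b7, Hsd17b13 and Slco1a4 had log2 fold changes of 0.39, -0.43 and -0.23, with adjusted p of 0.289 or more.

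Several Sult genes differ in level between the sexes in mouse liver, so lists of other sex-biased liver genes were read beside them. Of 21 tested male-biased genes, 9 were higher and 0 lower at an unadjusted p under 0.05, and the median log2 fold change was 0.29. In this list Slco1a1 and Mup17, a major urinary protein, also had adjusted p under 0.05. Mup17 rose from 123 and 107 CPM in HFD-WT to 388 and 438 CPM in HFD-KO (adjusted p 0.0025, or 0.0889 without HFD-WT replicate 2). Hsd3b5, a steroid reductase of male liver, was at 0.483 and 0.473 CPM in HFD-WT, against 25.8 and 2.51 CPM in HFD-KO, with an adjusted p of 0.262 that was 0.00078 without HFD-KO replicate 1 and 9.6e-18 without HFD-KO replicate 2. Of 14 tested female-biased genes, 6 were higher and 2 lower, with a median of 0.21. Cyp2a4, a steroid hydroxylase, was lower at 9.95 and 7.37 CPM in HFD-KO against 21.2 and 18.9 CPM in HFD-WT (adjusted p 0.0578, or 4.5e-08 and 1.5e-05 without HFD-KO replicate 1 and replicate 2). Cyp2c40 was at 0.691 and 0.727 CPM in HFD-WT, against 1.48 and 8.46 CPM in HFD-KO, where replicate 2 held most of it. HFD-KO replicate 1, which had the higher Sult2a8, also had more Hsd3b5, and replicate 2 had more Cux2 and Cyp2c40. This did not hold for every gene of the lists. The male-biased Mup17 was higher in HFD-KO replicate 2, and the female-biased Cyp2a4 was higher in HFD-KO replicate 1. Summed over all genes of the list, male-biased genes reached 14668 CPM in HFD-KO replicate 1 and 10825 CPM in HFD-KO replicate 2. Female-biased genes summed to 1864 and 2126 CPM in these libraries, most of it from Cyp4a10 at 1527 and 1679 CPM. Mup17 and Cyp2a4 belong to families of near-identical genes, between which reads can be divided in counting. The lists share genes, with Slco1a1 and Hsd3b5 also among the hormone genes and Cux2 among the factors. Whether these genes bear on the Sult values was not tested.

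**Figure D4:**
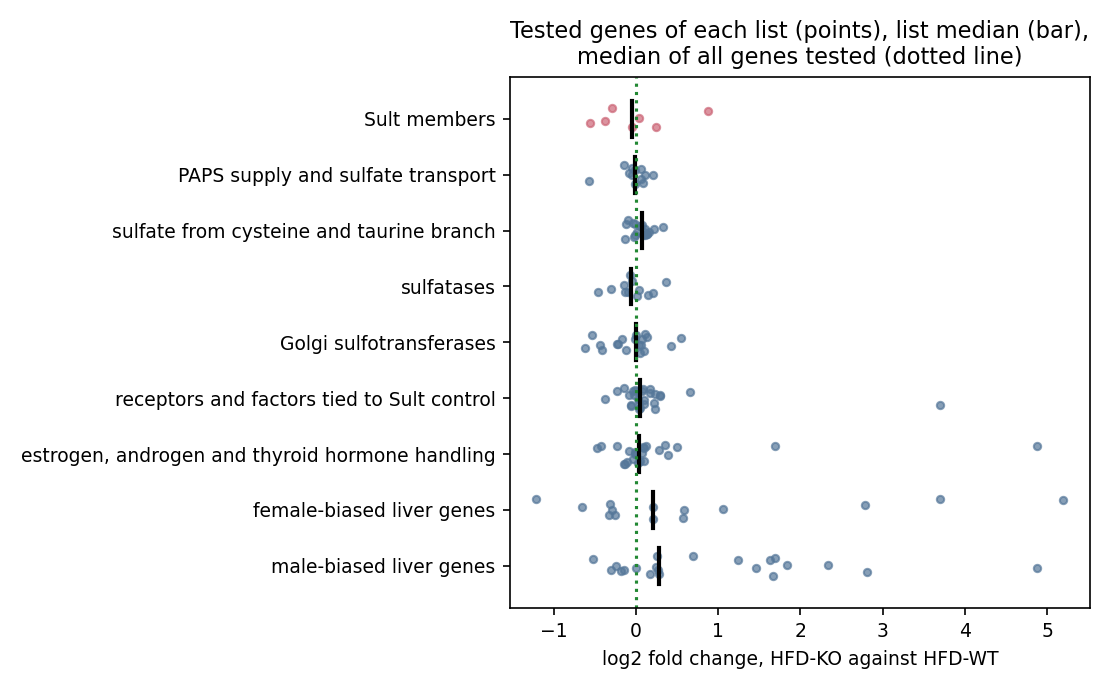
Log2 fold changes of HFD-KO against HFD-WT for the tested genes of each list (points), with the median of each list (black bar) and the median of all genes tested (dotted line, 0.01). The PAPS supply genes lie between -0.57 and 0.20 around a median of -0.01, and the male-biased list has the highest median, 0.29.

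The genes whose profile over the 4 libraries was most like that of Sult2a8 were found by the root mean square difference of centred log2(CPM + 1). They were Serpinb1a (0.0805), Gm43314 (0.0920), Gadd45b (0.0951), Slc25a25 (0.104) and Cyp7b1 (0.104). Cyp7b1, an oxysterol hydroxylase of bile acid synthesis, was at 43.5 and 43.4 CPM in HFD-WT, against 86.8 and 53.4 CPM in HFD-KO. Slc25a25, a mitochondrial carrier for ATP, was at 143 and 161 against 294 and 197 CPM. The 5 genes were chosen for this likeness, so in each of them HFD-KO replicate 1 was the highest library, as in Sult2a8. The member with the lowest log2 fold change, Sult1e1, was most like Ablim3 (0.0127), Klk1b4 (0.0128), Hopx (0.0138), Afap1l2 (0.0142) and Prss23 (0.0150). The added 1 CPM flattens Sult1e1, which lies under 1 CPM, so these distances are small for that reason also. With 4 libraries, likeness of this kind is a description of the libraries.

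**Figure D5:**
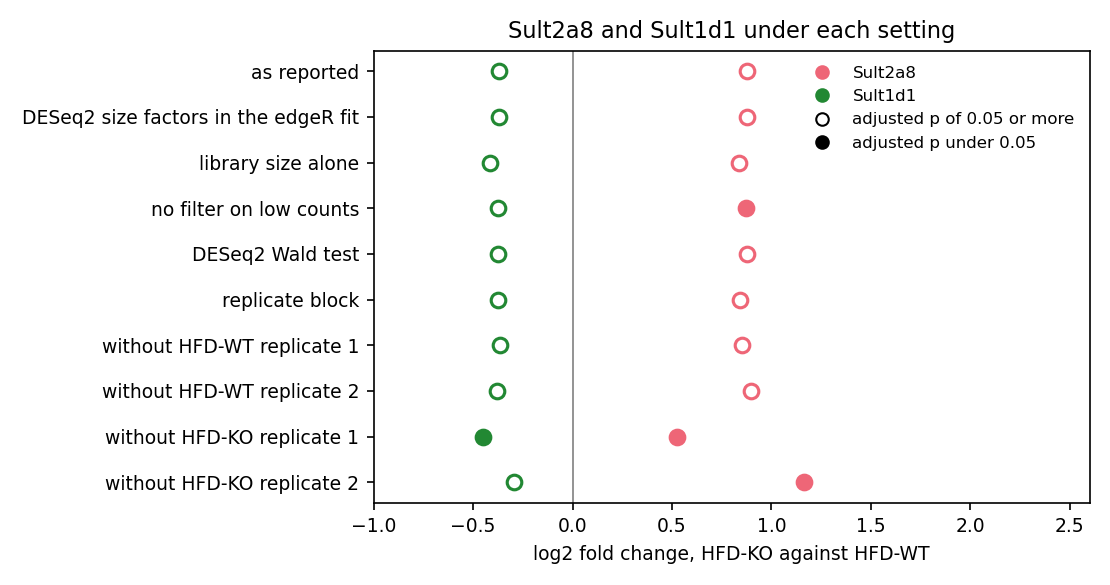
Log2 fold changes of Sult2a8 (red) and Sult1d1 (green) as reported and under each other setting, with filled points where the adjusted p was under 0.05. Sult2a8 stayed between 0.52 and 1.16 and Sult1d1 between -0.45 and -0.29, with filled points for Sult2a8 without the filter, without HFD-KO replicate 1 and without HFD-KO replicate 2, and for Sult1d1 without HFD-KO replicate 1.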

How the data were processed

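Liver RNA of male mice was extracted by the authors with TRIzol, prepared with a directional MGIEasy kit and sequenced as paired ends on a DNBSEQ-G400RS. Reads were aligned with the MGI alignment tool and quantified in Partek Genomics Suite with GENCODE annotation. The submitters' processing notes name both mm10 and GRCm39, and the gene positions deposited are those of GRCm39. Use of strand, multiple alignments and tool versions were not given in the sources used here. The deposited counts are whole, unnormalized read counts per gene and were the only values tested. The deposited TPM and RPKM values, computed by the authors from the same counts by gene length, were used for levels between genes. The deposited CPM values, scaled by an adjusted library size and treated as a score, were not used.

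Samples were grouped by their labels. The test used edgeR 4.0.16 under R 4.3.3 (filterByExpr by group with a minimum count of 10, TMM, quasi-likelihood test, two-sided, Benjamini-Hochberg adjustment over 12967 genes), and the procedure was tested on simulated data. Of the 25655 genes, 17301 had a count. The common biological coefficient of variation was 0.102. With 2 libraries against 2, the smallest exact permutation p is 0.333, so none was run. Alternatives were DESeq2 1.42.0, other scalings, no filter, a replicate block and leaving out each library. Promoters came from RefSeq on GRCm38.p6 and transcripts from GENCODE M21. Python 3.11.15, numpy 2.4.6, pandas 2.3.3, scipy 1.17.1 and matplotlib 3.10.9 were used.

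The members and gene lists were chosen with earlier results of these data known. Named were Adarb1, the members, all other Sult genes, and of each list the genes with an unadjusted p under 0.05 and no overlap between the groups (up to 6, or the 2 most abundant where fewer than 2 met this), of which the text gives a part, and the 5 genes most like the members with the highest and the lowest log2 fold change.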

Additional observations from a re-analysis of the deposited data

How the results depend on the processing

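Depth limits Sult1e1, Sult3a1 and the other Sult genes with few counts, and each group has only 2 libraries. Under the 9 alternatives, Sult2a8 kept a log2 fold change of 0.52 to 1.16 and Sult1d1 one of -0.45 to -0.29. The number of members with an adjusted p under 0.05 was 0 as reported, 1 without the filter on low counts, and 0 to 2 on leaving out 1 library. At an unadjusted p it was 2, and 2 to 3 on leaving out 1 library, with Sult5a1 added without HFD-WT replicate 2 and Sult1c2 without HFD-KO replicate 1. Genes higher at an adjusted p under 0.05 numbered 7, against 4 with library size alone, 81 without the filter, 56 by the DESeq2 Wald test, 12 with the replicate block and 0 to 376 on leaving out 1 library. Genes lower numbered 3, against 81, 61 and 8 without the filter, by DESeq2 and with the block, and 0 to 329 on leaving out 1 library. At an unadjusted p, 551 higher and 613 lower genes became 346 and 894 with library size alone, which moved the median of all genes to -0.04, and 304 and 372 by DESeq2, with 255 to 1095 and 207 to 1078 on leaving out 1 library. Without HFD-WT replicate 2, 0 genes had an adjusted p under 0.05 by edgeR, and 462 an unadjusted one. The cause of these differences was not tested.

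Of the 46 single genes followed, those that newly reached an adjusted p under 0.05 numbered 17 without HFD-KO replicate 1, 17 without HFD-KO replicate 2, 14 without the filter, 7 by DESeq2, 5 with the replicate block and 1 without HFD-WT replicate 1, and 2 (Slco1a1 and Mup17) no longer reached it without HFD-WT replicate 2. The sign of the log2 fold change turned for 5 genes. Sult1a1 was at -0.013 with library size alone and at -0.058 to 0.12 on leaving out 1 library. On leaving out 1 library, Sult1b1 ranged from -0.15 to 0.052, Sult2a7 from -0.31 to 0.026, Slc26a1 from -0.11 to 0.091, and Mat1a, a methionine cycle gene, from -0.032 to 0.21. The labels of the libraries name no pairing. Deviations of same-numbered libraries from the group means correlated at -0.087. With 2 libraries per group this is a single value, and it cannot show whether some genes share a pairing. With the replicate block, Sult2a8 had a log2 fold change of 0.84 (adjusted p 0.230) and Sult1d1 one of -0.37 (adjusted p 0.354), and 0 members had an adjusted p under 0.05. Fits with 1 library in a group assumed that it varied like the other group.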
